A study of Mus musculus with 12 samples.

Results

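The comparison described here asks whether curdlan changed transcripts by the same factor in 2 genotypes of cultured mouse dendritic cells. For each gene the change with curdlan in cells labelled as a Vav knockout was divided by the change in wild-type cells, and the log2 of that ratio is called the difference of responses. It was fitted to raw read counts of 18981 genes in all 12 of the 12 libraries. The cells were bone-marrow-derived dendritic cells of C57BL/6 mice, either wild type (WT) or labelled Vav1/2/3-/- (called KO-labelled here). Each genotype was left unstimulated or given curdlan for 3 hours, with 3 libraries in each of the 4 groups. The labels do not say whether the libraries of a group came from separate mice or cultures, so p-values measure the spread between these libraries, which may be technical. Each library is called by the number in its library name: in WT these are 1, 2 and 4 for either state, in KO-labelled cells 1, 2 and 5 when unstimulated and 2, 4 and 5 after curdlan.

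Curdlan is a particulate beta-glucan, a sugar polymer of the kind found in fungal cell walls, and its receptor is Dectin-1, the product of Clec7a. Dectin-1 activates the kinase Syk, and the adaptor Card9 with Bcl10 and Malt1 then carries the signal to NF-kB; other branches reach NFAT and the MAP kinases. Vav proteins are guanine nucleotide exchange factors that act below Syk-coupled receptors, and the title of the series places them in Card9 signalling. A response measured as a ratio can be smaller because the stimulated level is lower, because the level without stimulation is already higher, or both. The genes were therefore separated by the state in which the genotypes differed.

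Library totals ran from 41421718 to 61217861 counts. The targeted genes were not lower in the KO-labelled libraries: Vav1 read 131 to 135 CPM (counts scaled to a common library total) in WT and 198 to 233 in KO-labelled cells without curdlan, Vav2 65.0 to 70.8 against 276 to 287, and Vav3 21.6 to 28.9 against 31.5 to 40.1. With curdlan Vav1 and Vav2 were again higher, and Vav3, at 28.3 to 36.9 CPM in WT against 22.7 to 32.5, did not pass between the genotypes (adjusted p = 0.32). The counts therefore do not bear out the genotype labels. They are totals per gene that do not separate exons, so they cannot show whether an altered transcript was counted, and the labels were not tested. Every direction below is that of the libraries so labelled. Markers of other cells also moved with the labels: the summed level of 10 B cell markers was 618 to 886 CPM in WT and 14.4 to 24.8 CPM in KO-labelled libraries, with all 10 lower without curdlan and Ms4a1 at 0 in that KO-labelled group. In these bulk libraries, fewer cells of a type and less RNA per cell cannot be told apart. Macrophage markers (21 tested) summed to 13938 to 15331 CPM in WT and 21910 to 27127 in KO-labelled libraries, and 16 of them were higher without curdlan. Mast cell and basophil markers (12 tested) summed to 108 to 133 CPM in WT and 326 to 674 in KO-labelled libraries. Markers of conventional dendritic cells (22 tested) summed to 6519 to 7739 CPM in WT and 10283 to 14337 in KO-labelled libraries. Without curdlan 10 of them were higher in KO-labelled cells, including the MHC class II genes H2-Aa, H2-Ab1 and H2-Eb1, and 4 were lower, Itgax (which encodes CD11c), Clec9a, Batf3 and Ccr7. Itgax averaged 1488 CPM in unstimulated WT and 788 in unstimulated KO-labelled cells, and Flt3 was low in both, at 2.12 and 1.66 CPM. The part of these markers in the results was not tested. Each group was sequenced on a lane of its own, so that lane and group cannot be told apart, and the scaling factors for library composition fell from 1.11 to 1.15 in unstimulated WT to 0.863 to 0.871 in KO-labelled cells with curdlan.

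The response differed for 1004 of 18981 genes, or 5.29% (edgeR quasi-likelihood test, Benjamini-Hochberg adjusted p under 0.05). For 691 genes (3.64%) the ratio was lower in the KO-labelled cells and for 313 (1.65%) it was higher, while the median over all genes was 0. The split depended on the scaling: 68.8% of the calls were lower here, 56.9% with upper-quartile scaling and 84.1% with library size alone, which moved the median over all genes by -0.06. With the library number as a block, the count was 2908, and 984 of the 1004 genes were among them. In that fit KO unstimulated 1 and KO curdlan 4 have no library of the same number in the other state. Its KO-labelled response therefore rests on the libraries numbered 2 and 5 alone. One library weighed heavily: without KO curdlan 2 the count was 2855, and without another library it was between 379 and 945. Of the 1004 genes, 334 passed in each of the 12 fits that left out 1 library, 255 lower and 79 higher.

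The lower ratios had several shapes. Curdlan changed 3754 genes in WT cells (19.8%; 2156 or 11.4% higher, 1598 or 8.42% lower) and 5431 in KO-labelled cells (28.6%; 2667 or 14.1% higher, 2764 or 14.6% lower). Among the 691 lower ratios, 217 genes rose in WT and did not pass in KO-labelled cells, 64 rose in both, 96 rose in WT and fell in KO-labelled cells, and 286 fell in KO-labelled cells without passing in WT. The most frequent shape was thus a fall that passed in KO-labelled cells alone. Among the 313 higher ratios, 197 rose in KO-labelled cells without passing in WT, 49 fell in WT alone, and 16 fell in WT and rose in KO-labelled cells.

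**Figure D1:**
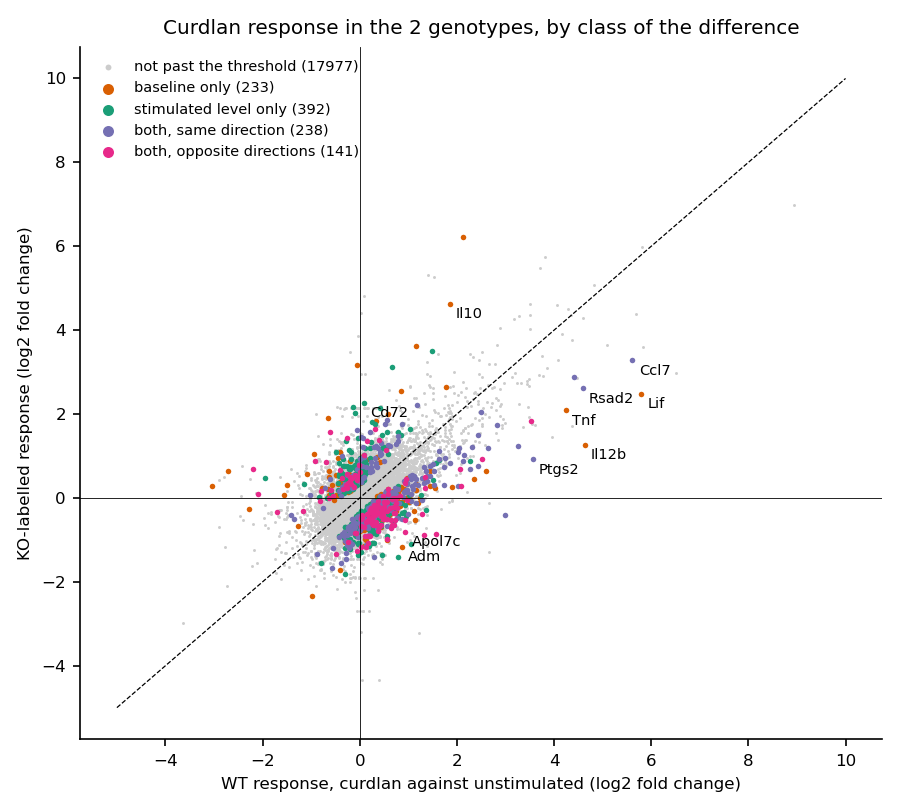
Each point is 1 of 18981 genes, with its log2 change with curdlan in WT cells (x axis) and in KO-labelled cells (y axis); the dashed line marks equal changes and colours give the class of the 1004 genes past the threshold. Il12b, Ptgs2, Tnf and Ccl7 lie far to the right of the line, with a rise in both genotypes that is smaller in KO-labelled cells, while Adm and Apol7c lie below 0 on the y axis and above 0 on the x axis.

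The genotypes themselves differed widely in both states. Without curdlan, 8408 genes (44.3%) passed between KO-labelled and WT cells, 3990 (21%) higher and 4418 (23.3%) lower, and with curdlan 9747 (51.4%), 4671 (24.6%) higher and 5076 (26.7%) lower. Of the 1004 genes, 233 differed only without curdlan, 392 only with curdlan, 238 in both states in the same direction and 141 in both states in opposite directions. No gene fell outside these classes. A lower ratio means by arithmetic that the KO-labelled level relative to WT was lower with curdlan than without, so within a class the sign of a one-state difference follows from the sign of the ratio. Of the 691 lower ratios, 382 were already higher in KO-labelled cells without curdlan: 165 in that state only, 111 in both states, and 106 that turned to lower with curdlan. With curdlan 415 were below the WT level: 245 in that state only, the same 106, and 64 that were below it in both states.

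**Figure D2:**
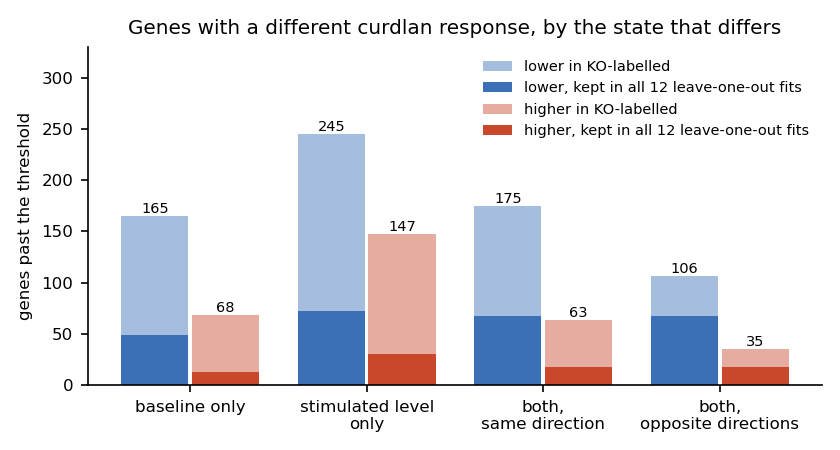
Bars give the number of genes past the threshold for the difference of responses (y axis, from 0) by the state in which the genotypes differed (x axis), lower ratios in blue and higher ratios in red. The dark part of each bar is the number that passed in all 12 fits leaving out 1 library, for example 72 of the 245 lower ratios that differed only with curdlan and 67 of the 106 with opposite differences.

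Genes that differed only without curdlan included the cytokine genes with the widest gap in ratio. Il12b (chromosome 11, 44400063 to 44414033, plus strand; GRCm38), which encodes the shared p40 subunit of interleukin-12 and interleukin-23, read 12.1, 11.0 and 13.5 CPM in unstimulated WT cells and 237, 255 and 418 with curdlan. In KO-labelled cells it read 189, 220 and 158 CPM unstimulated and 602, 342 and 419 with curdlan. The curdlan groups overlapped, while every unstimulated KO-labelled library lay far above every unstimulated WT library. Its difference was -3.37 ± 0.36 (log2, SE; adjusted p = 0.00177), with a baseline difference of 3.95 and a stimulated one of 0.58 that did not pass (adjusted p = 0.066). Tnf (chromosome 17, 35199381 to 35202007, minus strand), the inflammatory cytokine, followed the same course. It read 138 to 178 CPM in unstimulated WT, 2580 to 3531 in WT with curdlan, 868 to 1076 in unstimulated KO-labelled cells and 3006 to 4602 in KO-labelled cells with curdlan. The difference was -2.16 ± 0.24 (adjusted p = 0.00177), and the stimulated groups overlapped. On the linear scale the mean gain of Tnf was 3056 CPM in KO-labelled cells and 2837 CPM in WT, a description with no test.

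Nos2, the inducible nitric oxide synthase, read 23.4 to 24.8 CPM in unstimulated WT and 109 to 138 with curdlan. In KO-labelled cells it read 53.8 to 132 unstimulated and 104 to 146 with curdlan, and these 2 groups overlapped, so that its rise passed in WT only (difference -1.91 ± 0.37, adjusted p = 0.0171). Adm, which encodes the vasoactive peptide adrenomedullin, moved in opposite ways. It read 2.94, 2.18 and 2.44 CPM in unstimulated WT and 5.31, 4.71 and 3.75 with curdlan, a rise. KO-labelled cells held 13.3, 8.16 and 9.10 CPM unstimulated and 4.65, 5.11 and 3.90 with curdlan, a fall that ended at the stimulated WT level (difference -2.03 ± 0.28, adjusted p = 0.00384). Lif, a cytokine of the interleukin-6 family, had a difference of -3.32 ± 0.72 (adjusted p = 0.0292) that passed in 3 of the 12 fits leaving out 1 library. Its KO-labelled libraries ranged from 9.37 to 37.2 CPM unstimulated and from 70.3 to 221 with curdlan.

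The 68 higher ratios in this class were all lower in KO-labelled cells without curdlan. With curdlan they did not pass between the genotypes, which does not show equal levels: their median stimulated difference was 0.17. The change came from either genotype. Of these genes 30 rose in KO-labelled cells alone and 7 in both genotypes, while 20 fell in WT alone and 5 fell in WT and rose in KO-labelled cells. Rgs1, a regulator of G protein signalling, read 91.0 to 107 CPM in unstimulated WT and 46.0 to 62.3 in unstimulated KO-labelled cells, and 295 to 355 and 296 to 365 with curdlan. Its rise was larger in KO-labelled cells by 0.87 ± 0.17 (adjusted p = 0.0143). Slc1a5, a glutamine transporter, rose from 76.2 to 82.1 CPM to 134 to 156 CPM in KO-labelled cells, against 118 to 134 and 144 to 146 in WT (difference 0.74 ± 0.11, adjusted p = 0.00452). Lbh, with a difference of 0.77, rose in KO-labelled cells alone. Runx2, a runt-family transcription factor, came down in WT instead, from 26.2 to 30.0 CPM to 15.6 to 20.1, while its change in KO-labelled cells, from 15.5 to 17.9 CPM to 16.6 to 22.4, did not pass (difference 0.88). Il10, the anti-inflammatory cytokine, read 1.31 to 1.73 CPM in unstimulated WT but 0.0795 to 0.330 in unstimulated KO-labelled cells, and 4.60 to 5.94 against 3.10 to 7.77 with curdlan. That gave a difference of 2.78 ± 0.60 (adjusted p = 0.0251), kept in 7 of the 12 fits. It rests on 28 counts over the unstimulated KO-labelled libraries, and in the edgeR test without a filter on low counts it did not pass (adjusted p = 0.0521). Clec7a, the curdlan receptor itself, rose in KO-labelled cells alone, from 532 to 658 CPM to 793 to 1040, with WT at 713 to 767 and 675 to 830. Its difference of 0.63 ± 0.16 (adjusted p = 0.0428) passed in 4 of the 12 fits.

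Genes that differed only with curdlan passed between the genotypes in that state and did not pass without curdlan, which does not show equal starting levels. Lox (chromosome 18, 52516067 to 52529867, minus strand), which encodes the collagen-crosslinking enzyme lysyl oxidase, read 2.92 to 3.14 CPM in unstimulated WT and 7.24 to 8.65 with curdlan. KO-labelled cells held 2.72 to 4.11 CPM unstimulated and 2.26 to 3.15 with curdlan. The WT curdlan libraries thus stood above the other 9, and the difference was -1.66 ± 0.23 (adjusted p = 0.00358). Gys1, muscle-type glycogen synthase, likewise rose in WT only, from 69.5 to 70.5 CPM to 113 to 130 (difference -1.20 ± 0.23, adjusted p = 0.0155). Kif21b, a kinesin motor gene, instead fell in KO-labelled cells, from 46.3 to 72.7 CPM to 27.5 to 30.7, while WT read 70.0 to 82.1 and 83.0 to 99.1 (difference -1.38 ± 0.20, adjusted p = 0.00448).

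In the other direction, Cd72 (chromosome 4, 43446462 to 43454628, minus strand), an inhibitory membrane receptor of B cells and other leukocytes, gave the clearest single case. Its level was at most 11.4 CPM in unstimulated WT, 9.27 to 11.7 in WT with curdlan and 7.05 to 9.34 in unstimulated KO-labelled cells. Only KO-labelled cells with curdlan were higher, at 43.7, 39.6 and 35.7 CPM, and the difference was 2.18 ± 0.18 (adjusted p = 0.000397), between 2.07 and 2.28 in the 12 fits leaving out 1 library. Amigo3, Slc25a28, a mitochondrial iron transporter, and Pttg1, securin, had differences of 1.55, 1.28 and 1.10. Prdx1, a peroxide-reducing enzyme, rose in KO-labelled cells from 1155 to 1232 CPM to 1962 to 2414, with WT between 1074 and 1432 in both states (difference 0.76 ± 0.15, adjusted p = 0.0123).

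Genes that differed in both states in the same direction included Ptgs2 and Ccl7, and here the scale decides how the responses compare. Ptgs2 (chromosome 1, 150100031 to 150108227, plus strand), cyclooxygenase-2, read 55.9, 62.1 and 71.7 CPM in unstimulated WT and 714, 710 and 815 with curdlan. KO-labelled cells held 740, 573 and 559 CPM unstimulated and 1440, 862 and 1246 with curdlan, so that their unstimulated level nearly reached that of stimulated WT. The difference was -2.64 ± 0.25 (adjusted p = 0.000661). Ccl7 (chromosome 11, 82045712 to 82047525, plus strand), a monocyte-attracting chemokine, read 1.81 to 2.07 CPM in unstimulated WT and 80.8 to 107 with curdlan, and 74.4 to 93.8 and 675 to 926 in KO-labelled cells. As a ratio its rise was smaller in KO-labelled cells (difference -2.33 ± 0.20, adjusted p = 0.000397), but its mean gain was 708 CPM there and 92.1 CPM in WT. Gdf15, a stress-induced cytokine, and Hivep3, a zinc finger gene, had differences of -2.03 ± 0.19 (adjusted p = 0.000540) and -1.67 ± 0.31 (adjusted p = 0.0149). The Hivep3 call was lost with the library number as a block (adjusted p = 0.0868).

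Ccl7 was 1 of 24 genes among the 691 lower ratios whose mean gain in CPM was higher in KO-labelled cells, of which 23 belonged to the 175 genes that differed in both states in the same direction. Among 66 named genes past the threshold, 12 changed sign in this way, and in no other class did more than 1 gene of the lower ratios do so. Rsad2, an antiviral gene, gained 1907 CPM in KO-labelled cells against 296 in WT with a log2 difference of -1.98, and Oasl1 gained 320 against 73.0 with a log2 difference of -1.45. Ptgs2 and Il12b kept their sign, with gains of 559 against 683 CPM and 265 against 291 CPM.

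Of the 63 higher ratios in this class, 43 were higher and 20 lower in KO-labelled cells in both states, and 54 rose there with curdlan. Ppm1j, a protein phosphatase gene, read 12.4 to 14.6 CPM in WT in both states, 1.21 to 1.30 in unstimulated KO-labelled cells and 2.88 to 4.43 with curdlan (difference 1.41 ± 0.20, adjusted p = 0.00429). Flt1, a receptor for VEGF, followed with a difference of 1.37 ± 0.26. Both were lower in KO-labelled cells in either state. Arid5a, an RNA-binding regulator of cytokine transcripts, was higher in KO-labelled cells in both states and rose there from 14.9 to 19.0 CPM to 33.6 to 40.2, with WT at 11.4 to 16.2 in both states (difference 1.15 ± 0.19, adjusted p = 0.00716).

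Among the 141 genes whose genotype difference turned round with curdlan, 106 had a lower ratio. Ticam2 (chromosome 18, 46557291 to 46574533, minus strand), which encodes the Toll-like receptor adaptor TRAM, read 34.7, 36.6 and 41.9 CPM in unstimulated WT and 60.1, 59.9 and 57.6 with curdlan. KO-labelled cells went the other way, from 76.6, 61.8 and 74.7 CPM to 44.3, 46.7 and 38.9. No unstimulated library overlapped the curdlan libraries of its own genotype, and the difference was -1.37 ± 0.14 (adjusted p = 0.000825). Tsku, a secreted leucine-rich protein gene, and Apol7c, an apolipoprotein L gene, also rose in WT and fell in KO-labelled cells, with differences of -1.34 and -1.74. Tnfsf15, the cytokine TL1A, rose in both, from 66.4 to 78.3 CPM to 646 to 1178 in WT and from 136 to 170 CPM to 442 to 627 in KO-labelled cells (difference -1.69 ± 0.31, adjusted p = 0.0123). Its stimulated groups did not overlap. Of the 35 higher ratios, Gadd45g, a growth arrest gene, fell in WT from 22.6 to 28.0 CPM to 7.11 to 7.85, against 9.30 to 16.9 and 9.81 to 11.6 in KO-labelled cells (difference 1.36 ± 0.25, adjusted p = 0.0113). Plekhf1, Klf11 and Elk4 had differences of 1.32, 0.96 and 0.82.

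**Figure D3:**
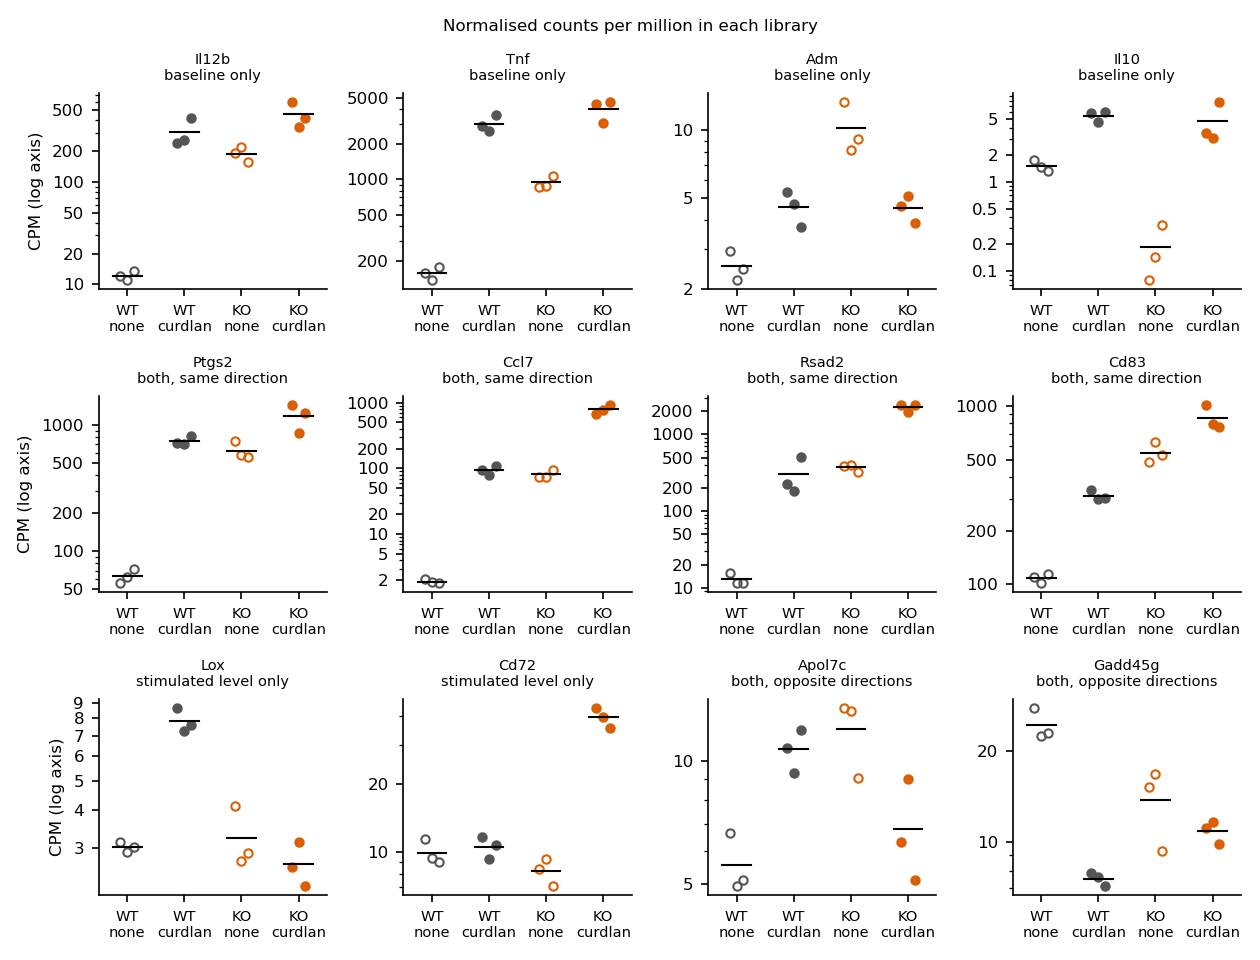
Each panel gives CPM on a log axis for 1 gene in the 12 libraries (points; grey WT, orange KO-labelled, open without curdlan, filled with curdlan), with black bars for group means and the class under the gene's name. In Il12b and Tnf the unstimulated KO-labelled libraries stand far above unstimulated WT while the curdlan groups overlap, in Cd72 only KO-labelled cells with curdlan are high, and in Apol7c the 2 genotypes move in opposite ways.

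Of the 22 genes on the list for the Dectin-1 response, 7 had a lower (31.8%) and 2 a higher ratio (9.09%), beside 3.64% and 1.65% of all genes, and the list's median difference was -0.51. All but 2 rose with curdlan in WT and all but 2 in KO-labelled cells. The shares here and below are of all genes, most of which did not rise with curdlan. Of the 2156 genes that rose in WT, 377 had a lower ratio, and no list was compared with that set. Without curdlan 12 members were higher and 2 lower in KO-labelled cells than in WT, and with curdlan 11 were higher and none lower. Of the calls, 5 differed only without curdlan and 4 in both states in the same direction. Besides Il12b, Ptgs2 and Tnf, the lower ones were Il23a, the p19 subunit of interleukin-23 (-1.54), Tnfaip3, the NF-kB feedback inhibitor A20 (-0.68), Syk (-0.57) and Malt1 (-0.54). Syk read 540 to 587 CPM in unstimulated WT, 793 to 830 in WT with curdlan, 842 to 914 in unstimulated KO-labelled cells and 800 to 898 with curdlan, a rise in WT only. The calls of Il23a and Malt1 passed in 5 and 2 of the 12 fits leaving out 1 library. With the library number as a block, 12 members were lower.

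Several genes commonly read out for this pathway did not pass. Egr1, an immediate-early transcription factor, read 16.0 to 18.6 CPM in unstimulated WT, 268 to 304 in WT with curdlan, 13.2 to 24.0 in unstimulated KO-labelled cells and 415 to 503 with curdlan. Its difference of 0.55 ± 0.24 had an adjusted p of 0.172. Card9 itself read 39.6 to 59.8 CPM in WT and 39.0 to 46.9 in KO-labelled libraries, with a difference of 0.23 ± 0.13 (adjusted p = 0.279). Cxcl1, a neutrophil-attracting chemokine, had a difference as large as that of Ptgs2, -2.64, but an SE of 0.72 and an adjusted p of 0.0625. Its KO-labelled libraries spread from 9.44 to 24.3 CPM unstimulated and from 20.9 to 104 with curdlan, and with the library number as a block its adjusted p was 3.193e-07. The block also brought in Cxcl2 (adjusted p = 0.000177), Il6 (0.000744), Il1b (0.0477) and Nfkbia (0.00136), whose differences without it were -1.03, -0.82, -0.49 and -0.45 with adjusted p of 0.114, 0.304, 0.558 and 0.0579.

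**Figure D4:**
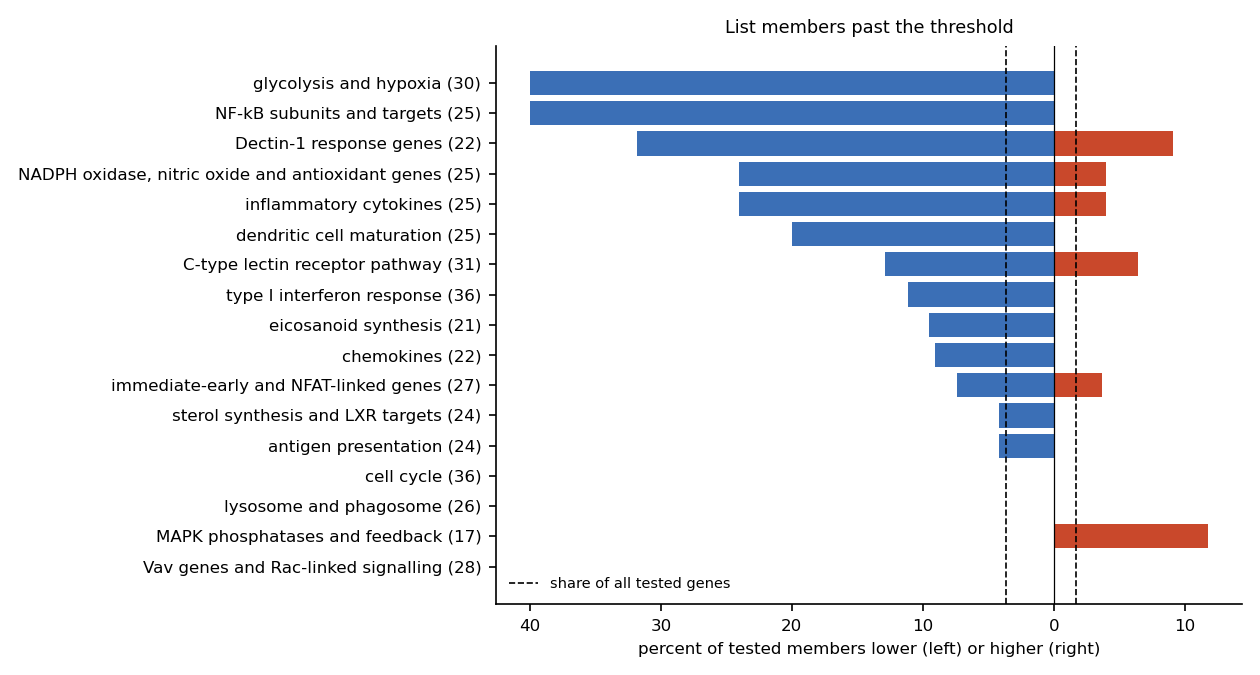
Bars give the percent of each list's tested members (number in brackets) past the threshold with a lower ratio (blue, to the left) or a higher ratio (red, to the right), and dashed lines mark 3.64% and 1.65%, the shares of all 18981 genes. The glycolysis and hypoxia list, with 12 of 30, and the NF-kB list, with 10 of 25, reach furthest to the left. The list of MAP kinase phosphatases and feedback genes, with 2 of 17, reaches furthest to the right, and both of its calls are Rgs genes.

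NF-kB is the transcription factor family below Card9. Of 25 tested subunits and targets, 10 had a lower ratio (40%, against 3.64% of all genes) and none a higher one, while 15 did not pass, and the median was -0.50. In WT 23 of them rose with curdlan, and in KO-labelled cells 16 rose and 2 fell. Among all 2156 genes that rose in WT, 377 had a lower ratio, a set with which this list was not compared. Without curdlan 23 of the 25 were higher in KO-labelled cells and none lower, and with curdlan 19 were higher and none lower. Of the 10 calls, 8 differed in both states in the same direction and 2 only without curdlan. The feedback inhibitors Nfkbie, Tnfaip3 and Tnip1 had differences of -0.80, -0.68 and -1.05, and Nfkbiz had one of -1.12. Tnip1, a partner of A20, rose in WT from 183 to 219 CPM to 273 to 345 and fell in KO-labelled cells from 376 to 417 CPM to 268 to 313. Icam1 (-1.13), an adhesion molecule, Cflar (-0.92) and Birc3 (-0.56), inhibitors of cell death, and Tnfaip2 (-0.82), Traf1 (-0.53) and Bcl3 (-0.50) made up the rest. Leaving out 1 library gave 8 to 14 lower members, and the block gave 18.

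The sequence around the starts of the 25 listed genes, whether past the threshold or not, was searched for the kB motif of NF-kB. The kB consensus was matched on both strands in RefSeq windows from 250 bases before to 50 after the start (GRCm38.p6). Windows were at hand for 22 of the 25 members, and 10 of them (45.5%) held the pattern, against 5.12% of the 11053 tested genes with a window. Overlapping matches on either strand count as 1 gene. The members were chosen as NF-kB subunits and targets, so a high share follows from that choice and does not bear on the difference of responses. The 250 bases before the start are shown for Tnip1 (chr11:54962941-54963190, minus strand) and Nfkbie (chr17:45555450-45555699, plus strand), with the matches in capitals; they begin 58 to 56 bases before the start of Tnip1, where 4 overlap, and 106 bases before that of Nfkbie.
Tnip1: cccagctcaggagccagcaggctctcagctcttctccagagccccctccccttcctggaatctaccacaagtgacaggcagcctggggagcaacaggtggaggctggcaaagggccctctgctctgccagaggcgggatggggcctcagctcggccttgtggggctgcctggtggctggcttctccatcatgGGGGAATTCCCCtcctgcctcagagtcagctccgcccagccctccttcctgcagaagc
Nfkbie: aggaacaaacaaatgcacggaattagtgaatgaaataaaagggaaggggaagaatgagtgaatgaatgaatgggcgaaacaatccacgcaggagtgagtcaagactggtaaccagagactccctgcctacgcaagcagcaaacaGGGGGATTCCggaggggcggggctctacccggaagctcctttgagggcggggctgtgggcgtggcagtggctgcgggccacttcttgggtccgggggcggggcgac
A match is a description of these letters, not a site of binding.

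The glycolysis and hypoxia list held the most lower ratios, 12 of 30 (40%) against 3.64% of all genes, with none higher and a median difference of -0.60. Curdlan raised 17 members in WT and 3 in KO-labelled cells. Of the 12, 8 differed only without curdlan, 2 only with curdlan, 1 in both states in the same direction and 1 in opposite directions. Hk2, hexokinase 2, which traps glucose in the cell, read 216, 256 and 264 CPM in unstimulated WT and 555, 583 and 600 with curdlan. KO-labelled cells held 683, 509 and 612 CPM unstimulated and 700, 527 and 575 with curdlan: the high level was present without stimulation and did not pass for a change (difference -1.24 ± 0.18, adjusted p = 0.00420). Slc2a1, the glucose transporter GLUT1, and Slc16a3, a lactate exporter, had differences of -0.90 and -0.95, and the glycolytic enzymes and regulators Pfkl, Pfkfb3 and Hk1 of -0.79, -0.79 and -0.85.

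Egln3, an oxygen-sensing prolyl hydroxylase, had the other pattern. It read 173, 164 and 192 CPM in unstimulated WT and 435, 380 and 451 with curdlan, against 210, 156 and 261 and then 203, 188 and 261 in KO-labelled cells, so the WT curdlan libraries stood alone (difference -1.20 ± 0.24, adjusted p = 0.0165). Ero1l, an oxidase of protein folding, Egln1, P4ha1 and P4ha2, prolyl hydroxylases, and Adm completed the 12, with differences of -1.32, -0.74, -0.61, -1.03 and -2.03. The core glycolytic genes Gapdh, Ldha, Eno1, Pkm, Pgk1 and Aldoa did not pass. The count was 7 without WT unstimulated 1, WT unstimulated 2 or KO unstimulated 1, 8 to 14 without another library, and 20 with the block.

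**Figure D5:**
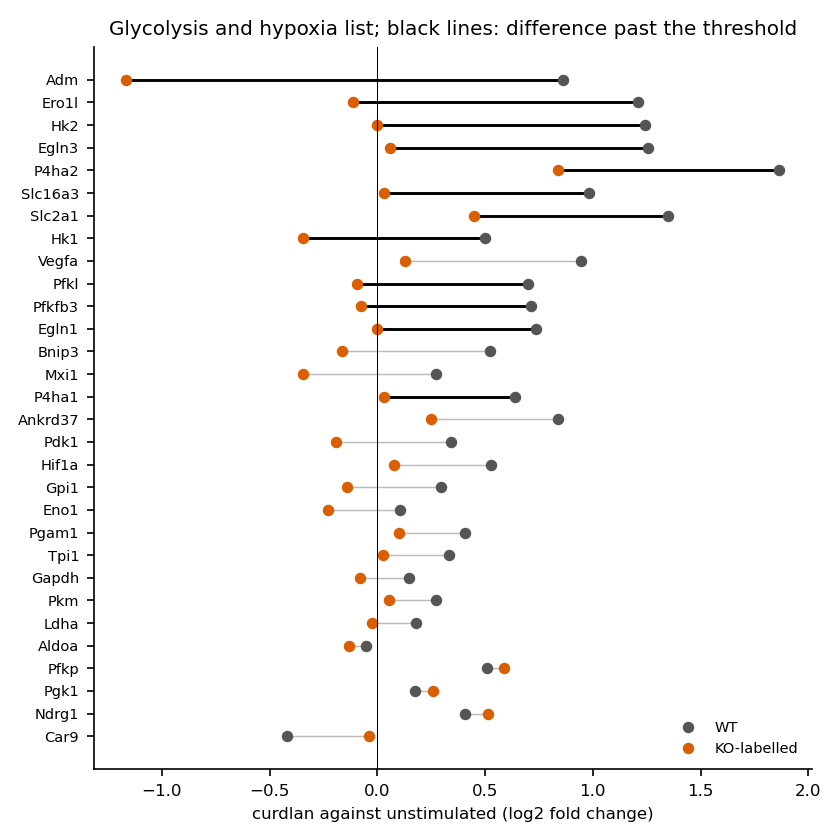
For each of the 30 tested genes of the glycolysis and hypoxia list, points give the log2 change with curdlan (x axis) in WT (grey) and KO-labelled cells (orange), ordered by their difference, with a black line where the difference passed. The 12 black lines all run to the left from WT to KO-labelled cells, and most orange points lie near 0.

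Hypoxia-inducible factors bind sites with the core ACGTG. This core was added to the motifs after the result on the list was seen. It was found, on either strand, in 16 of 28 members with a window (57.1%), against 24.5% of the 11053 tested genes with one. The members were chosen as glycolysis and hypoxia genes, whether past the threshold or not, so this share does not bear on the difference of responses. The 250 bases before the start are shown for Hk2 (chr6:82774455-82774704, minus strand), raised without curdlan, and for Egln3 (chr12:54203875-54204124, minus strand), raised by curdlan in WT only, with the core or its reverse complement in capitals. They begin 226 and 52 bases before the start of Hk2 and 229 before that of Egln3.
Hk2: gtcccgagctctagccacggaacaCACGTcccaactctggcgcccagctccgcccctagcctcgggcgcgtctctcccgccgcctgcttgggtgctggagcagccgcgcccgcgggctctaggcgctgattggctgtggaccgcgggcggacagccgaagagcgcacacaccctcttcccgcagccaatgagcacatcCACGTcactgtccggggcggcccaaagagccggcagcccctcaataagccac
Egln3: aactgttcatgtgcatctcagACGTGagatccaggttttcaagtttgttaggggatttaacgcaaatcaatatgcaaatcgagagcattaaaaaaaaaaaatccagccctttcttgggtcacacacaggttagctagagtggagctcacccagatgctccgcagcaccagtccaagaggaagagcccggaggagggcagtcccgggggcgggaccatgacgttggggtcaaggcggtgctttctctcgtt
The letters were present in genes of both patterns.

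Interferon-stimulated genes, induced through the type I interferon receptor, were far higher in KO-labelled cells in both states, 36 of 36 each time, and most rose in both genotypes, 30 of 36 in WT and 34 in KO-labelled cells. A lower ratio was found for 4 of them (11.1%, against 3.64% of all genes) and a higher one for none, with a median of -0.31. The 4 were Rsad2, Oasl1, Rtp4 (-1.24) and Isg15 (-1.08). Among all 2156 genes that rose in WT, 377 had a lower ratio, so the list does not stand out from induced genes by this count. Rsad2 read 11.5 to 15.4 CPM in unstimulated WT and 186, 228 and 514 with curdlan, the last in WT curdlan 4, against 328 to 400 and 1976 to 2439 in KO-labelled cells. The calls of Rsad2, Rtp4 and Isg15 were lost with the block (adjusted p = 0.197 for Rsad2), and the count of lower members was 1 without WT unstimulated 2 or 4, without any 1 of the 3 unstimulated KO-labelled libraries, or without KO curdlan 4. It was 2 without WT curdlan 1 or KO curdlan 5. Without WT curdlan 4, 4 members were higher and 3 lower. Oasl1 passed in all 12 fits (-1.45 ± 0.25, adjusted p = 0.00860; with the block adjusted p = 0.0276).

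Maturation genes of dendritic cells gave 5 lower ratios of 25 (20%, against 3.64% of all genes), none higher. Cd83, a surface marker of mature dendritic cells, read 102 to 114 CPM in unstimulated WT, 300 to 340 in WT with curdlan, 486 to 628 in unstimulated KO-labelled cells and 762 to 1017 with curdlan (difference -0.89 ± 0.17, adjusted p = 0.0118). The 4 groups did not overlap and lay in that order. Icosl, a costimulatory ligand, rose in WT from 70.4 to 84.1 CPM to 105 to 119 and fell in KO-labelled cells from 252 to 300 CPM to 180 to 218. Socs3, Tnfsf9 and Traf1 were the other 3, and the block gave 11 lower and 1 higher. Ciita, the transactivator of MHC class II genes, rose in WT and fell in KO-labelled cells (-1.23 ± 0.25, adjusted p = 0.0187), the only call among 24 antigen presentation genes (4.17%), with 1 lower and 2 higher under the block.

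The lists below are read against the same shares of all genes, 3.64% lower and 1.65% higher. They were not compared with the genes that rose in WT. Of 25 inflammatory cytokines, 6 (24%) had a lower ratio (Il12b, Lif, Tnf, Tnfsf15, Il23a and Tnfsf9) and 1 (4%), Il10, a higher one, and the block gave 10 lower and 3 higher. Chemokines gave 2 lower of 22 (9.09%), Ccl7 and Cx3cl1 (-0.88), with 4 lower without KO unstimulated 2 or KO curdlan 5, and 7 lower and 2 higher with the block. The list of NADPH oxidase, nitric oxide and antioxidant genes gave 6 lower of 25 (24%), among them Irg1 (-1.44), which makes itaconate, Slc7a2 (-1.09), an arginine transporter, and Nfe2l2 (-0.70), which encodes the antioxidant regulator Nrf2. It gave 1 higher, Prdx1, and with the block 9 lower and 1 higher. C-type lectin receptor genes gave 4 lower of 31 (12.9%), led by Clec4e (-0.89), which encodes Mincle, and 2 higher (6.45%), Clec7a and Clec4a2 (0.38); with the block 4 were lower and 8 higher. Eicosanoid genes gave 2 lower of 21 (9.52%), Ptgs2 and the prostaglandin receptor gene Ptger4 (-0.49), and with the block 4 lower and 2 higher. Ptger4, Clec4a2 and Lif passed in 3 of the 12 fits each.

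Of 27 immediate-early and NFAT-linked genes, most of which rose in both genotypes (23 in each), Fosl1 (-1.40) and Maff (-0.51) were lower (7.41%) and Klf4 (1.02) was higher (3.7%), with a median of 0.04. These calls passed in 7, 8 and 11 of the 12 fits, and the block gave 2 lower and 5 higher. MAP kinase phosphatases and feedback genes gave 2 higher of 17 (11.8%), Rgs1 and Rgs2 (0.92), with a median of 0.31, and with the block 6 higher and 2 lower. Both calls are regulators of G protein signalling, and none of the MAP kinase phosphatases on the list passed without the block. Sterol synthesis and LXR targets gave 1 lower of 24 (4.17%), the cholesterol exporter Abca1 (-0.97, passing in 8 of the 12 fits), and with the block 9 lower and 1 higher. No gene passed the edgeR test among 28 Vav genes and Rac-linked signalling genes, 26 lysosome and phagosome genes and 36 cell cycle genes, of which 6, 2 and 12 had an unadjusted p under 0.05. The block called 3 higher and 2 lower, 3 higher and 2 lower, and 2 higher and 6 lower in these lists, and DESeq2 2 and 2, 0 and 0, and 1 and 2. Vav1, Vav2 and Vav3 had differences of -0.04 ± 0.14, -0.02 ± 0.12 and -0.67 ± 0.22 (adjusted p = 0.902, 0.943 and 0.0840), and Vav3 passed with the block (adjusted p = 0.00591). Among markers of cell types, Fcgr1 (0.69) of 21 macrophage markers was higher, Ciita and Id2 (-0.69) of 22 dendritic cell markers and Csf3r (-0.50) of 22 neutrophil markers were lower, and none of 10 B cell markers passed (2 with an unadjusted p under 0.05, none with DESeq2), although all 10 were lower in KO-labelled cells in each state. Of 10 plasmacytoid dendritic cell markers, 1, Runx2, was higher (10%) and 2 were lower (20%), against 1.65% and 3.64% of all genes. With the block 4 macrophage markers were higher and 1 lower, 6 conventional dendritic cell markers higher and 6 lower, 2 neutrophil markers higher and 3 lower, and 1 B cell marker was lower. Plasmacytoid markers again gave 1 higher and 2 lower.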

How the data were processed

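TruSeq v2 libraries, a kit that does not mark strand, were made from TRIzol- and column-purified RNA, per the labels' protocols. The curdlan dose on the labels is 200 mg/ml, a unit not checked here. The authors deposited raw read counts per gene, whole numbers that are not normalized; the submitters' processing notes list featureCounts 1.4.6, TopHat2 2.4.2a, SAMtools 1.2, FastQC 0.11.1 and DESeq2 1.8.2, with no role given. No build, annotation or strand setting is given in the sources used here, so reads of overlapping, antisense or near-identical genes cannot be told apart. The authors' deposited tables of fold changes were not used, nor were 24 further columns of values per library.

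Of 37991 genes, 18981 passed filterByExpr by group. edgeR 4.0.16 under R 4.3.3 (TMM scaling, robust quasi-likelihood F-test, two-sided, Benjamini-Hochberg adjustment over all genes tested) fitted 4 group means to 12 libraries. Differences are log2 (KO-labelled curdlan over unstimulated, divided by the same in WT) ± SE, CPM are TMM-scaled. Alternatives used DESeq2 1.42.0, limma-voom 3.58.1, other scalings, filters and thresholds. On data simulated for this difference with 18807 genes, 83% of 100 genes changed by 1 on the log2 scale and 99% of 100 changed by 2 were recovered, with 10 false calls. The changed genes all had an average log2 CPM over 2, and counts were drawn independently for each gene and library. Deviations that a library shares across genes were not simulated, so these figures do not give the recovery or false calls in the real libraries. Replicates of a group differed by 9.86 to 83.9 times the counting variance, and none were merged.

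Numbers of the library names may pair the states, although sample titles number the libraries in another way. Deviations from the group means correlated between same-numbered libraries of the 2 states by 0.65, 0.49 and 0.20 in WT and by 0.44 and 0.82 in KO-labelled cells (11450 genes). Differently numbered libraries ran from -0.59 to 0.18 in WT and from -0.74 to 0.46 in KO-labelled cells, where KO 2 correlated with KO curdlan 4 (0.46) slightly more than with KO curdlan 2. Every same-numbered value was above 0.1, and on that rule the number was taken as a pairing, for which KO 1 and KO 4 have no partner. Some differently numbered libraries were above 0.1 too, among them KO 1 with KO curdlan 2 (0.41), so the rule does not establish the pairs. Results with the block hold only if the numbers do pair the libraries. Blocked counts are given for the lists whose count they move by over 1.5 times, and named genes whose call was lost with the block, or gained with it on the Dectin-1 list or among the Vav genes, are named.

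Named genes are, per class and direction, up to 4 by size among those whose log2 CPM averaged at least 2 and that passed in all 12 fits leaving out 1 library, up to 4 called members per list, the Dectin-1 list and the Vav genes; further members are named from the lists. Members, lists and rules were chosen with earlier results of these data known. Coordinates are of GENCODE M21 (GRCm38), with 1393 tested genes unmatched; promoter windows are RefSeq's, for 11053 tested genes, and are compared only for lists with windows for at least 80% of members.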

Additional observations from a re-analysis of the deposited data

Results flagged for a closer look

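The difference of responses itself was a test of whether 2 genotypes respond alike, and it passed for 1004 genes. Among the named genes, 9 stood out because curdlan moved them past the threshold in opposite directions in the 2 genotypes, with the difference tested in the same fit. Adm (-2.03), Apol7c (-1.74), Ticam2 (-1.37), Tsku (-1.34), Ciita (-1.23), Tnip1 (-1.05) and Icosl (-0.95) rose in WT and fell in KO-labelled cells. Efr3b (1.06) and Elk4 (0.82) fell in WT and rose in KO-labelled cells. All but Ciita, which passed in 10, passed in each of the 12 fits leaving out 1 library. For genes named by class, such as Adm, Apol7c, Ticam2, Tsku and Elk4, this was a condition of being named.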

How the results depend on the processing

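The 1004 genes kept the sign of their difference under every alternative fit in which they were tested (973 of them with the stricter filter on low counts). They were chosen for that difference in the same counts, so kept signs are no separate support. On the linear CPM scale described below, 24 lower ratios and 1 higher ratio changed sign. Counts past the threshold moved more, as follows. Library size alone gave 1138 lower ratios. DESeq2 gave 2172 genes, 876 higher and 1296 lower, of which 520 differed only without curdlan, 940 only with it, 654 in both states and 58 in neither; 974 of the 1004 were among them. The replicate block, with library number within genotype, gave 2908 genes, 1212 higher and 1696 lower. An adjusted p under 0.01 left 215 genes (43 higher, 172 lower; 63, 82 and 70 in the classes baseline only, stimulated level only and both). A change of at least 2-fold in each contrast left 197 (70 higher, 127 lower; 55, 53 and 21, and 68 in neither). These thresholds count fewer genes by construction, and for the other settings the cause was not tested.

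Leaving out 1 library gave 379 to 2855 genes, 89 to 1343 higher and 290 to 1512 lower, with 76 to 648 baseline only, 114 to 1367 stimulated level only, 163 to 816 in both states and 0 to 24 in neither. The total moved by over 1.5 times without WT unstimulated 1 (403), 2 (526) or 4 (610), WT curdlan 2 (379) or 4 (597), KO unstimulated 1 (414) or 5 (663), and KO curdlan 2 (2855). The 66 named genes past the threshold passed again for 66 with DESeq2 and with the stricter filter, 65 with limma-voom and with library size alone, 64 with upper-quartile scaling, 62 with the block (not Rsad2, Rtp4, Isg15 or Hivep3) and 60 without a filter, and in 695 of the fits of a named gene without 1 library against 97 in which it did not. Genes named by class were chosen for passing in all 12 of those fits, so the last tally does not describe the 1004 genes. Of the 1004, 334 passed in all 12.

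The linear CPM scale, added after the results were seen and with no test, turned the sign of 12 named genes: the KO-labelled gain exceeded the WT gain by 616 CPM for Ccl7, 104 for Cd83, 23.4 for Gdf15, 27.7 for Il23a, 206 for Isg15, 49.9 for Maff, 78.3 for Nfkbiz, 247 for Oasl1, 1610 for Rsad2, 28.8 for Rtp4, 219 for Tnf and 20.1 for Tnfsf9. Depth limits low genes such as Csf2, with 4 counts over unstimulated WT and 11 over unstimulated KO-labelled libraries.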
